A study of Mus musculus with 9 samples.

Results

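The genes that license replication origins, unwind and copy DNA, supply its building blocks and re-form chromatin behind the fork were followed in bone marrow-derived macrophages, primary phagocytes that grow out of mouse marrow cells in culture. The 46 genes were listed by symbol according to textbook roles in DNA replication and S phase, with earlier results of these data known. All 46 were found among the 22524 genes counted and all 46 passed the filter on low counts, with 11560 genes tested in all. They were ordered into 6 steps, namely origin licensing (10 genes), helicase activation (6), polymerases and fork factors (16), nucleotide supply (5), E2F and cyclin E (4) and chromatin copying (5).

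RNA sequencing gave 9 libraries in 3 groups of 3. Control (wild type) C57BL/6 macrophages were left untreated or received lipopolysaccharide (LPS, a bacterial outer membrane component sensed by Toll-like receptor 4) for 6 h. SRF-KO macrophages, also C57BL/6, received LPS for 6 h. SRF is serum response factor, a transcription factor best known for driving immediate-early and actin cytoskeleton genes. All cells were seeded as bone marrow and kept 7 days in dishes, and the agent added to turn marrow cells into macrophages is not given in the sources used here. Neither the way Srf was deleted nor whether replicates are separate mice or cultures is given, so each p-value rests on the spread between these samples alone, which may be technical. Untreated SRF-KO cells were not analysed here, and a change caused by LPS within SRF-KO cells therefore has no measured baseline.

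A replication origin is licensed in G1 when the origin recognition complex, Cdc6 and Cdt1 load the MCM2-7 helicase as an inactive double ring. At the start of S phase, cyclin-dependent and Dbf4-dependent kinases bring in Cdc45 and the GINS complex, and polymerases, the PCNA clamp and its RFC loader then copy the strands. Transcription of most of these genes is driven by activator E2F factors and held down in resting cells by E2F4, retinoblastoma family proteins and the DREAM complex. Macrophages from cultured marrow divide while growth factor is present, and LPS is known to stop their proliferation.

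Total counts ranged from 15321839 to 24912173 per library. Srf reached 44.3 ± 4.54 CPM (read counts relative to the TMM-scaled library size; SD, n = 3) in untreated control, 57.6 ± 2.17 in control LPS and 1.05 ± 0.438 in SRF-KO LPS, which matched the genotype labels. The Y-linked genes Ddx3y, Uty, Kdm5d and Eif2s3y had at least 248 counts in each control library and 0 to 2 in each SRF-KO library, so genotype and the sex of the cells cannot be told apart. All 9 macrophage markers were tested, and their summed level was 16920 to 17490, 23100 to 23590 and 24310 to 24530 CPM in the 3 groups in the order above. Single markers differed, with 6 of 9 lower in SRF-KO LPS than in control LPS and 4 of these at least 2-fold, among them Fcgr1, an IgG receptor (log2 fold change -4.46), Mertk, a receptor for dying cells (-2.33), and Cd68 (-1.35), while Lyz2 and Cd14 made up most of the sum in SRF-KO LPS. The part of these differences in the changes below was not tested. Of 9 progenitor markers only Cd34 was tested, and the list summed to 2.72 to 3.40 CPM in untreated control, 0.403 to 0.453 in control LPS and 9.41 to 10.3 in SRF-KO LPS, with Elane, Prtn3 and Ctsg at 0 counts in every group. The part of this progenitor signal in the changes below was not tested. The 7 neutrophil markers summed to 2.189 to 2.557, 6.34 to 7.33 and 18.8 to 20.5 CPM, with Ly6g and Retnlg at 0 counts in both LPS groups. S100a8 held most of the sum in both LPS groups and, with Camp, rose over the 3 groups in that order, while S100a9, Ltf and Ngp had lower means in both LPS groups than in untreated control. The part of these markers was likewise not tested. In bulk RNA, fewer dividing cells and less RNA per dividing cell cannot be told apart.

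Because E2F factors read short elements close to the start of replication genes, the letters just upstream of 7 members that behaved differently from each other are shown. RefSeq windows on GRCm38.p6, from 250 bases before to 50 after the transcription start, were found for 38 of the 46 genes. The stretches below are the 150 bases before the start, 5′ to 3′ on the coding strand. Capitals mark E2F-type letters (TTTCCCGC, TTTGGCGC, TTTGCCGC or TTTCGCGC), the CCAAT box, or the cell cycle homology region TTTGAA, each on either strand. Mcm2 (chr6:88898781-88898930, minus strand) and Mcm5 (chr8:75109359-75109508, plus strand) are helicase genes that fell with LPS and were higher again in SRF-KO LPS. Mcm6 (chr1:128359706-128359855, minus strand), of the same helicase, and Cdt1 (chr8:122567865-122568014, plus strand) were not higher again with TMM scaling. Cdc6 (chr11:98908001-98908150, plus strand) and Pola1 (chrX:93632156-93632305, minus strand) followed most members, and Tyms (chr5:30073626-30073775, minus strand) was highest in SRF-KO LPS. No base of these stretches lies in an annotated exon of GENCODE mouse release 21.
Mcm2: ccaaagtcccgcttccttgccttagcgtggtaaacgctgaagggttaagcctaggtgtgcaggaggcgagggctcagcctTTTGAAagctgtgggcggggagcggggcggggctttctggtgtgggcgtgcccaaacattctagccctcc
Mcm5: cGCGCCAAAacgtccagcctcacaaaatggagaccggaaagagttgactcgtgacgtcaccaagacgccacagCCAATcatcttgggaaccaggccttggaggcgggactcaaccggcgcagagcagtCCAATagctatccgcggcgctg
Mcm6: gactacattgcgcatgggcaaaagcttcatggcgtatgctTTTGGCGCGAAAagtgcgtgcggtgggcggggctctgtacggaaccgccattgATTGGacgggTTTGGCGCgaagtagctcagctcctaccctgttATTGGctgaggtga
Cdt1: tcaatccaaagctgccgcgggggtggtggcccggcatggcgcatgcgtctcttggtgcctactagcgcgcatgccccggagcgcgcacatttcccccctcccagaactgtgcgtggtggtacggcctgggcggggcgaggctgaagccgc
Cdc6: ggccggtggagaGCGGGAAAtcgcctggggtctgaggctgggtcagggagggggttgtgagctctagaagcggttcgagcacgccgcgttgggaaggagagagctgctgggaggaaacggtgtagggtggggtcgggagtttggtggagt
Pola1: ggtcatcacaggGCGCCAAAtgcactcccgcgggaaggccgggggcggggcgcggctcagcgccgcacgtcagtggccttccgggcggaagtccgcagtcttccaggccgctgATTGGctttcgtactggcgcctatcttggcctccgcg
Tyms: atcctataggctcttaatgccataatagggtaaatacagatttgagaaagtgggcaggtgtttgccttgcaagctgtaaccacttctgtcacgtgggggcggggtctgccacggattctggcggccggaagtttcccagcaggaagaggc

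E2F-type letters occurred in the windows of 16 of the 38 genes (42.1%), against 4.84% of the 9117 tested genes that have a window and 2.6% of the 27025 genes of the RefSeq table. Mcm6 held 3 such matches, 2 of them overlapping, more than any other stretch shown, and Mcm5, Cdc6 and Pola1 held 1 each. Cdt1 had its only match downstream of the start, outside the stretch printed, and the Tyms and Mcm2 windows held none. The CCAAT box was found for 23 of the 38 genes (60.5%, against 43.1% of tested genes) and TTTGAA for 6 (15.8%, against 14.5%). Of the genes shown, those higher in SRF-KO LPS than in control LPS had E2F-type letters (Mcm5, Cdc6 and Pola1) or none (Mcm2 and Tyms). Mcm6 and Cdt1, not higher again with TMM scaling, both had such letters in their windows. Whether the letters bear on the split described below was not tested, and a match is a string of letters, not a measured binding site.

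The whole set was lower with LPS. The 46 genes summed to 2987 ± 9.99 CPM in untreated control and 672 ± 11.2 in control LPS (SD, n = 3), and SRF-KO LPS lay between at 1348 ± 10.8. As a share of all counts, which is scaling by library totals alone, they made up 0.355%, 0.0545% and 0.140% of the libraries. The plot of all members by library shows the same order in each step, with 9 genes that stood apart in at least 1 comparison (Cdt1, Mcm6, Cdc45, Gins3, Gins4, Pcna, Rfc2, Rfc3 and Tyms).

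**Figure D1:**
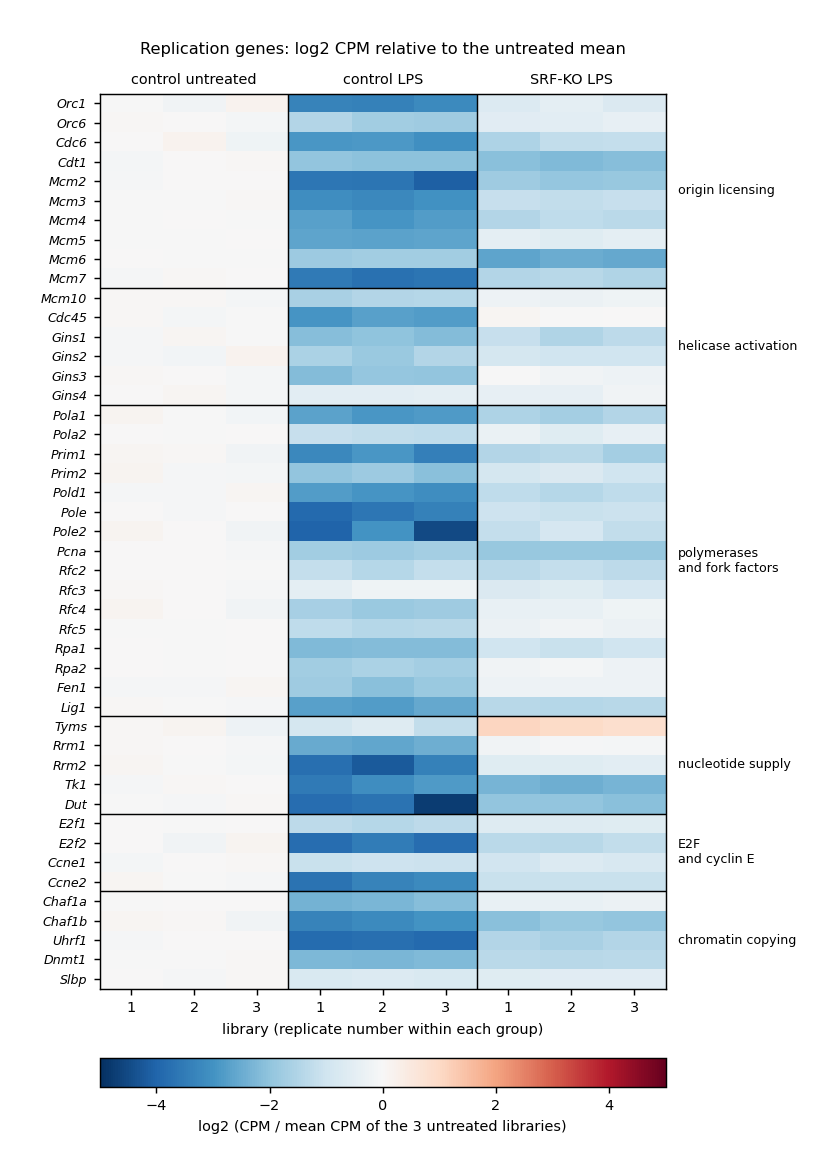
Log2 ratio of CPM to the mean of the 3 untreated control libraries for each of the 46 genes (rows, by step) in each of the 9 libraries (columns, by group). Nearly all rows are low in control LPS and intermediate in SRF-KO LPS, while Mcm6 is lower still in SRF-KO LPS and Tyms is above the untreated level there.

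With LPS in control cells, 46 of 46 genes were lower and 0 higher, where 40.8% of all tested genes were lower (edgeR quasi-likelihood test, Benjamini-Hochberg adjusted p below 0.05). In each of the 46 the LPS libraries lay below all untreated ones (41.4% of tested genes). Of the set 42 fell at least 2-fold (17.4% of tested genes) and 28 at least 4-fold (6.63%). The median log2 fold change was -2.25, from -4.03 for Dut to -0.29 for Rfc3, against -0.02 over all tested genes. The lowest count of a member in any library was 7, for Pole2 in control LPS, and 4 members had under 20 counts in a control LPS library.

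Between the genotypes under LPS, most of the set was higher in SRF-KO. Of the 46 genes 40 were higher (39.1% of tested genes), 3 were lower (37.9%), namely Mcm6, Rfc3 (which did not pass with library totals in place of TMM scaling) and Pcna (which then turned to higher), and Cdt1, Gins4 and Rfc2 did not pass. At least 2-fold higher were 32 genes (13.9% of tested genes), and at least 4-fold higher were 12 (5.45%). The median log2 fold change was 1.47, against 0.01 over all tested genes.

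SRF-KO cells with LPS still had less of most of these transcripts than untreated control cells. Lower were 43 genes (40.1% of tested genes), only Tyms was higher (39.4% of tested genes), and Cdc45 and Gins3 did not pass. The median log2 fold change was -1.04, and 24 genes were at least 2-fold lower (13.0% of tested genes). For 40 genes the SRF-KO mean lay between the control means, and the share of all tested genes with such a place was not calculated. The 3 comparisons share libraries, so they are not independent of each other.

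**Figure D2:**
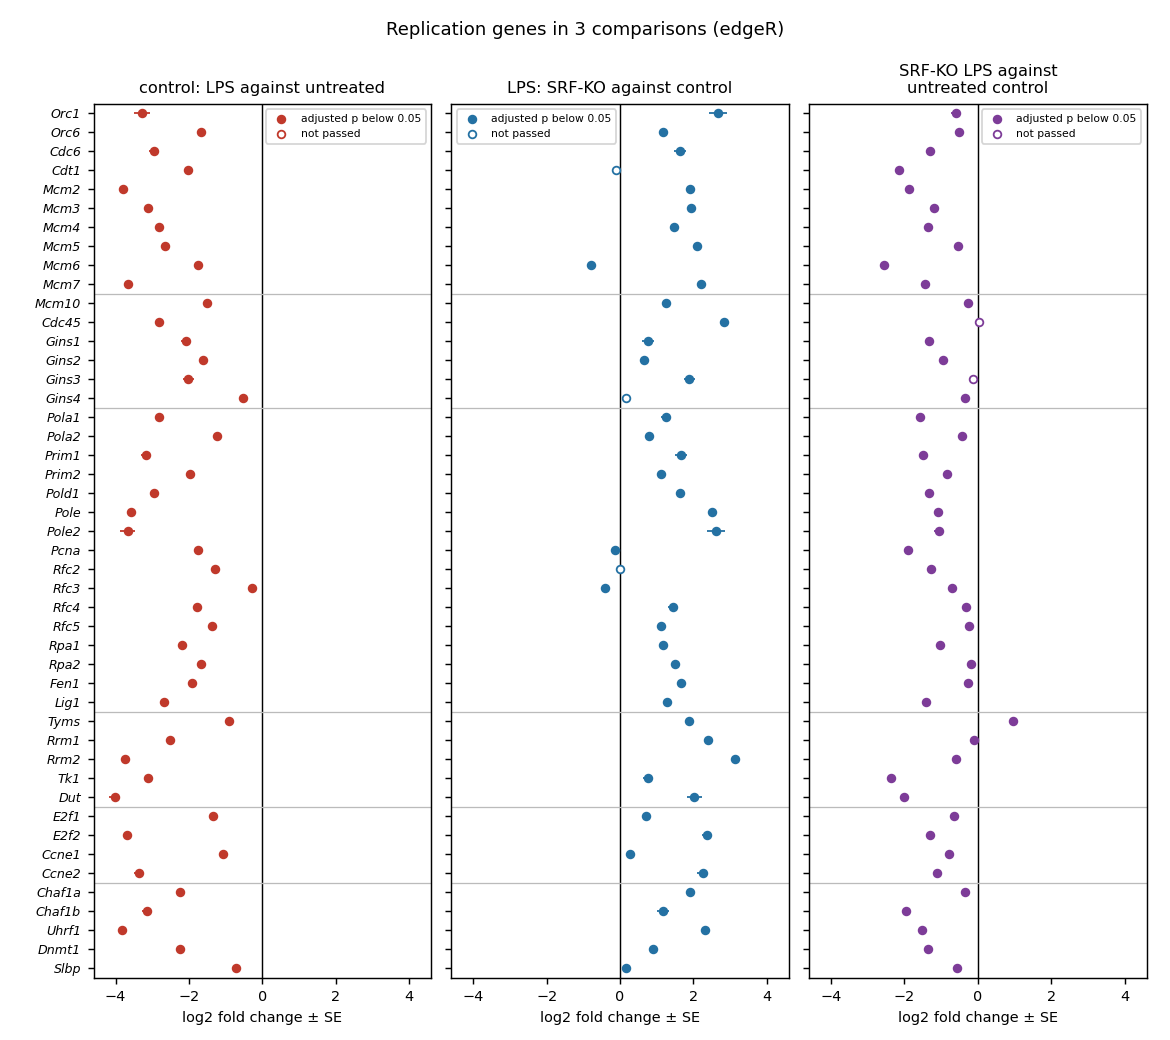
Log2 fold change ± SE from edgeR of the 46 genes, by step, for control LPS against untreated control (left), SRF-KO LPS against control LPS (middle) and SRF-KO LPS against untreated control (right), with filled points for genes past an adjusted p of 0.05. Points on the left are all below 0, and the middle panel holds 3 filled points below 0 (Mcm6, Pcna and Rfc3), of which Pcna turns to higher and Rfc3 does not pass with library totals alone.

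Scaling bears on the small changes. TMM factors were 1.18 to 1.19 in untreated control, 0.810 to 0.814 in control LPS and 1.04 in SRF-KO LPS, and with library totals alone the median of all tested genes moved from -0.02 to -0.57 for LPS and from 0.01 to 0.37 between the genotypes. The numbers of tested genes called higher and lower then went from 4722 and 4721 to 2428 and 7835 for LPS, from 4521 and 4384 to 7059 and 2434 between the genotypes, and from 4554 and 4638 to 3448 and 6042 for SRF-KO LPS against untreated control. Among the 46 genes the direction turned for Cdt1 and Pcna between the genotypes and for Cdc45 against untreated control.

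Origin licensing genes had a median log2 fold change of -2.89 with LPS, and 8 of 10 were higher in SRF-KO LPS than in control LPS, with a median of 1.78 over the 10. For this and the step counts below, 39.1% of all tested genes were higher between the genotypes. Orc1, the ATPase subunit of the origin recognition complex, fell by 3.27 on the log2 scale and was 2.67 higher in SRF-KO LPS. It had only 8, 9 and 11 counts in control LPS, so the size of both values is uncertain. Orc6, another subunit, changed less, by -1.67 and 1.16. Cdc6, which helps load the helicase, fell by 2.96 and was 1.64 higher. At 12 of the 46 genes an exon overlaps that of another counted gene on the opposite strand. They are Orc6, Mcm7, Cdc45, Gins2, Rfc2, Rfc4, Rfc5, Fen1, Lig1, Tk1, Ccne2 and Chaf1a. The strand setting of the counting is not given, so reads there could be shared.

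The 6 helicase subunits form a ring with 1 copy of each, and their transcripts did not move together. Mcm2 had 93.7, 97.7 and 97.4 CPM in untreated control, 7.82, 7.67 and 5.63 in control LPS, and 28.0, 25 and 26.0 in SRF-KO LPS. Mcm5 had 139, 139 and 143 CPM, then 22.6, 22 and 22.8, then 99.2, 91.5 and 101. The groups of both genes were separate and in the same order, untreated highest and control LPS lowest. Mcm3, Mcm4 and Mcm7 had that order too, with log2 fold changes of -3.12, -2.83 and -3.65 for LPS and 1.93, 1.479 and 2.20 between the genotypes.

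Mcm6 (chr1:128331590-128359664, GRCm38, minus strand) went the other way. It had 293, 282 and 287 CPM in untreated control, 82.4, 85.9 and 85.6 in control LPS, and 46.3, 51.8 and 49.4 in SRF-KO LPS. No groups overlapped, and SRF-KO LPS was the lowest. With LPS the log2 fold change of Mcm6 was -1.76 (SE 0.0428, adjusted p = 1.01e-30, edgeR), a smaller fall than that of the other 5 subunits, whose log2 fold changes ran from -3.79 to -2.64. Between the genotypes its log2 fold change was -0.78 (SE 0.048, adjusted p = 1.62e-17, edgeR), a 1.72-fold lower level. Against untreated control it was 5.84-fold lower in SRF-KO LPS, the largest difference of the 46 genes in that comparison. Its direction held in each scaling and each left-out library tried.

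**Figure D3:**
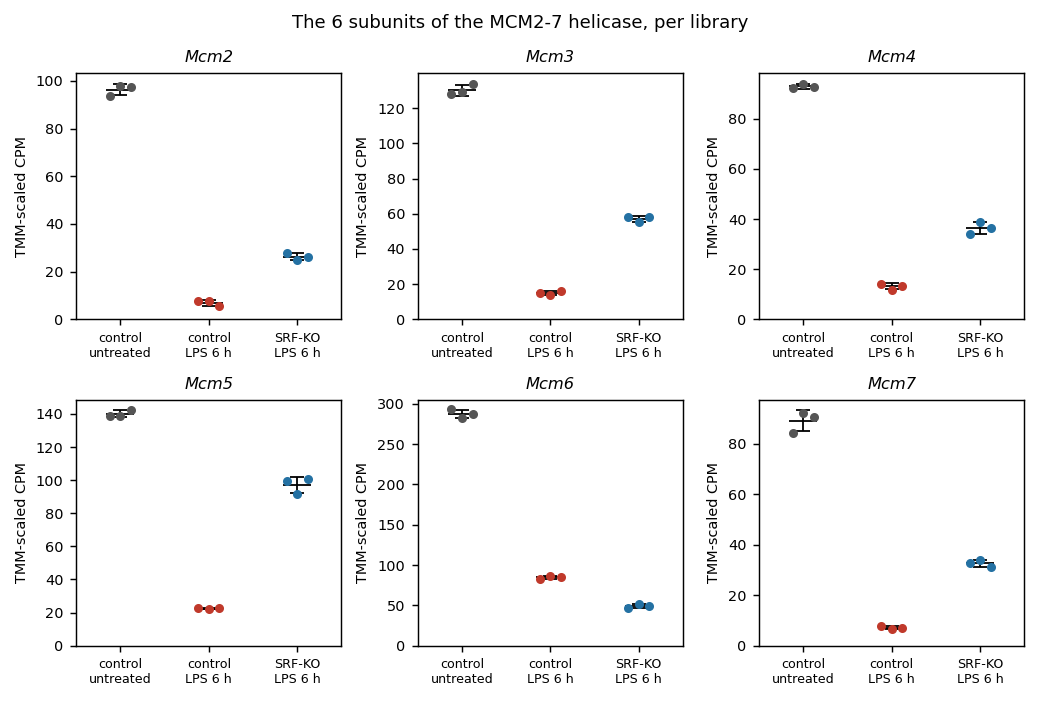
CPM of the 6 MCM2-7 subunits in each library (points) with the group mean ± SD (n = 3), on linear axes from 0. In 5 panels SRF-KO LPS lies between control LPS and untreated control, and in the Mcm6 panel it lies lowest.

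The make-up of the helicase transcripts therefore differed between groups. Per kilobase of mRNA, Mcm6 made up 37.9%, 36.3% and 36.5% of the summed MCM2-7 level in the untreated libraries. Its share was 58.0%, 60.9% and 59.9% in control LPS, and 17.1%, 19.2% and 18% in SRF-KO LPS. These shares are taken within a library and do not depend on scaling between libraries, and the 3 groups did not overlap. By raw counts with no correction for length the mean shares were 34.4%, 56.7% and 16.5%. The level of Mcm6 per kilobase was 3.12 to 3.53 times the median of the other 5 subunits in untreated control, 7.13 to 8.91 times in control LPS and 1.45 to 1.62 times in SRF-KO LPS. Mcm5 was the most abundant subunit per kilobase in all 3 SRF-KO libraries and Mcm6 in all 6 control libraries. The ratio of the highest to the lowest subunit was 3.70 to 3.92 in untreated control, 12.2 to 17.6 in control LPS and 3.54 to 3.86 in SRF-KO LPS.

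**Figure D4:**
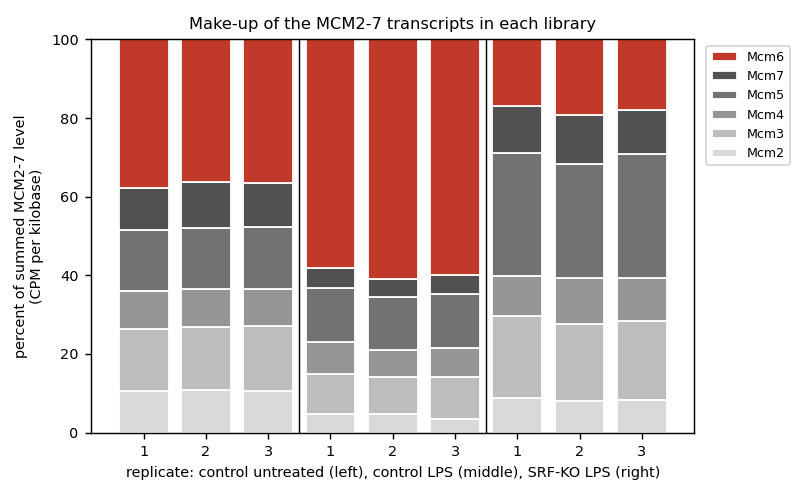
Share of each subunit in the summed CPM per kilobase of Mcm2 to Mcm7, in percent, for each of the 9 libraries, with Mcm6 in red. The Mcm6 share averages 36.9% in untreated control, 59.6% in control LPS and 18.1% in SRF-KO LPS.

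Cdt1 (chr8:122568015-122573554, plus strand), which delivers the MCM ring to the origin and is destroyed once S phase begins, was not higher in SRF-KO LPS with TMM scaling. It had 79.6, 85.4 and 87.0 CPM in untreated control, 21.2, 20.3 and 20.4 in control LPS, and 19.6, 18.3 and 19.4 in SRF-KO LPS. Both LPS groups were far below untreated control, and their own ranges were close but did not overlap. LPS lowered Cdt1 by 2.03 on the log2 scale (adjusted p = 7.68e-28, edgeR). Between the genotypes the difference was -0.11 with a 95% interval of -0.29 to 0.06, which did not pass (adjusted p = 0.15, edgeR), and with library totals alone it was 0.24 and passed (adjusted p = 0.00206, edgeR). Among the other replication genes Gmnn, the Cdt1 inhibitor geminin, had 31.7 to 31.9 CPM in untreated control, 4.49 to 6.98 in control LPS and 13.0 to 15.6 in SRF-KO LPS.

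Helicase activation genes had a median log2 fold change of -1.82 with LPS and 1.00 between the genotypes, and 5 of 6 were higher in SRF-KO LPS. Of the 6 steps this one had the highest median share of the untreated mean in SRF-KO LPS, at 81.3%, although the differences between steps were not tested. Its genes ran from 40.1% for Gins1 to 102% for Cdc45. Summed CPM in untreated control and SRF-KO LPS was 121 and 89.9 for this step, and 274 and 202 for nucleotide supply. Mcm10, a scaffold that helps the ring start unwinding, had the highest mean log2 CPM of the step over the 9 libraries, although Gins4 was higher in control LPS and, per kilobase, in every group. It had 33.1, 32.8 and 29.7 CPM in untreated control, 10.4, 11.5 and 11.8 in control LPS, and 26.5, 26.1 and 27.4 in SRF-KO LPS. Its SRF-KO libraries lay well above control LPS and a little under untreated control, with log2 fold changes of 1.24 and -0.26.

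Cdc45 (chr16:18780447-18811987, minus strand), the factor that turns the loaded ring into a working helicase, overlapped its untreated level. It had 18.4, 16.5 and 17.4 CPM in untreated control, 2.26, 2.63 and 2.52 in control LPS, and 18.6, 17.1 and 17.5 in SRF-KO LPS. Untreated and SRF-KO libraries overlapped, and control LPS was 7.01-fold below untreated control and 7.14-fold below SRF-KO LPS. The difference between SRF-KO LPS and untreated control was 0.03 on the log2 scale (95% interval -0.16 to 0.21, adjusted p = 0.749, edgeR), and -0.17 with library totals alone, which passed as lower (adjusted p = 0.043, edgeR). Ufd1 on the opposite strand overlaps 5.96% of the Cdc45 exon bases and was itself 0.71 higher in SRF-KO LPS than in untreated control.

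GINS is a ring of 4 proteins that binds the helicase together with Cdc45, and its genes differed in how much they changed. Gins3 had 9.07, 8.91 and 8.22 CPM in untreated control, 1.93, 2.28 and 2.20 in control LPS, and 8.65, 7.82 and 7.31 in SRF-KO LPS. Like Cdc45 it overlapped between SRF-KO LPS and untreated control, with a difference of -0.14 (95% interval -0.39 to 0.12, adjusted p = 0.221, edgeR) that reached -0.33 and passed with library totals alone. Gins4 had 24.1, 25.5 and 22.3 CPM in untreated control, 16.6, 16.6 and 16.9 in control LPS, and 17.8, 17.8 and 21 in SRF-KO LPS. It moved the least of the step, and its genotype difference of 0.17 (95% interval -0.04 to 0.37, adjusted p = 0.0677, edgeR) did not pass, although the ranges did not overlap. Without SRF-KO replicate 1 or 2, or with library totals, that difference passed, at 0.20, 0.20 and 0.52. Per kilobase, Gins4 averaged 45.7% of the summed GINS level in untreated control, 68.8% in control LPS and 55.9% in SRF-KO LPS. Gins1 and Gins2 had log2 fold changes of -2.09 and -1.61 with LPS and of 0.76 and 0.66 between the genotypes. Exons of Gse1 on the opposite strand cover 67.3% of the Gins2 exon bases. The Gins2 counts, and the Gins4 shares of a GINS level that includes them, are therefore uncertain.

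Polymerase and fork genes had a median log2 fold change of -1.94 with LPS, and 13 of 16 were higher in SRF-KO LPS than in control LPS, with a median of 1.26. Of the 16, the genes of 2 subunits of leading-strand DNA polymerase epsilon changed the most. Pole, the catalytic subunit, and Pole2 changed by -3.59 and -3.67 with LPS and were 2.51 and 2.60 higher in SRF-KO LPS than in control LPS. Pole2 had only 8, 19 and 7 counts in control LPS, so the size of its changes is uncertain. The small subunit genes Pole3 and Pole4, not among the 46, changed by -0.53 and 0.44 with LPS. Pold1, the catalytic subunit of lagging-strand polymerase delta, changed by -2.96 and 1.62. The primase genes Prim1 and Prim2 changed by -3.17 and -1.97 with LPS and by 1.67 and 1.12 between the genotypes.

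Pola1, the catalytic subunit of polymerase alpha, changed by -2.82 and 1.24, and its partner Pola2 by -1.22 and 0.78. Pola2 averaged 33.7% of the summed polymerase alpha-primase level per kilobase in untreated control, 56.5% in control LPS and 47.2% in SRF-KO LPS. Pola1 is the only one of the 46 genes on the X chromosome, and without the genes on X and Y 39 of 45 were higher between the genotypes. With them it was 40 of 46, and 39.1% of all tested genes.

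Genes that act on the lagging strand and on single-stranded DNA followed the majority. Rpa1 and Rpa2, of the protein that coats single strands, changed by -2.18 and -1.68 with LPS and by 1.16 and 1.5 between the genotypes. Fen1, the flap nuclease that trims Okazaki fragments, changed by -1.91 and 1.66, and Lig1, the ligase that joins them, by -2.68 and 1.27. Rpa2 and Fen1 reached 88.0% and 83.7% of their untreated means in SRF-KO LPS. The remaining difference of Rpa2 from untreated control (-0.18) did not pass without SRF-KO replicate 3 (-0.14, adjusted p = 0.0631, edgeR).

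The sliding clamp and its loader split. Pcna (chr2:132249162-132253314, minus strand), the clamp that holds polymerases on DNA, had 441, 445 and 423 CPM in untreated control, 130, 126 and 133 in control LPS, and 116, 118 and 117 in SRF-KO LPS. It was the most abundant gene of its step by CPM, and both LPS groups lay far below untreated control. With LPS its log2 fold change was -1.75 (SE 0.0394, adjusted p = 8.21e-32, edgeR). Between the genotypes it was slightly lower in SRF-KO, by a log2 fold change of -0.15 (SE 0.0412, adjusted p = 0.00166, edgeR), but 0.21 higher with library totals alone.

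RFC opens the clamp and sets it on the template. Rfc2 (chr5:134581366-134601805) had 39.9, 39.4 and 38.8 CPM in untreated control, 17.2, 14.4 and 17.1 in control LPS, and 15.6, 17.1 and 16 in SRF-KO LPS. The 2 LPS groups overlapped, with a difference of 0.01 (95% interval -0.19 to 0.21, adjusted p = 0.93, edgeR), and of 0.36 with library totals alone, which passed. Lat2 on the opposite strand overlaps 15.1% of the Rfc2 exon bases and was itself lower in SRF-KO LPS than in control LPS (-0.40). With LPS in control cells the mean of Lat2 fell from 272 to 64.9 CPM (-2.07), and that of Rfc2 from 39.3 to 16.2. The part of shared reads in the fall of Rfc2 was not tested. Rfc3 (chr5:151642756-151651242) had 19.1, 18.7 and 17.9 CPM in untreated control, 13.3, 16 and 16 in control LPS, and 11.2, 12 and 10.5 in SRF-KO LPS. It was lower in SRF-KO LPS by a log2 fold change of -0.42 (SE 0.091, adjusted p = 7.42e-05, edgeR), and by -0.07 with library totals alone, which did not pass (adjusted p = 0.49, edgeR).

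Rfc4 and Rfc5 behaved like most members, at -1.77 and -1.36 with LPS and 1.45 and 1.11 between the genotypes. Against untreated control, SRF-KO LPS differed by -0.32 and -0.25 for these 2 genes. On the opposite strand Eif4a2 overlaps 12.7% of the Rfc4 exon bases, and Wsb2 overlaps 10.7% of those of Rfc5. Within the loader, Rfc3 averaged 24.0% of the summed RFC level per kilobase in untreated control, 39.8% in control LPS and 23.9% in SRF-KO LPS.

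**Figure D5:**
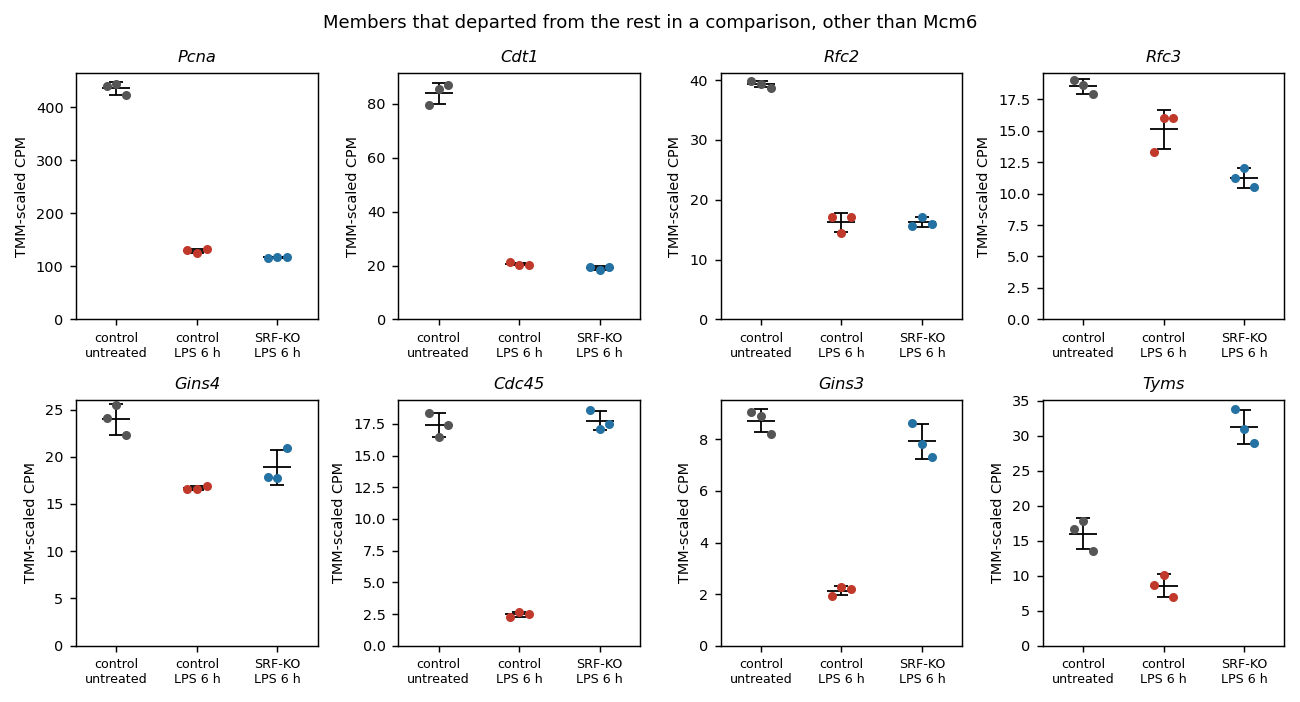
CPM in each library (points) with the group mean ± SD (n = 3), on linear axes from 0, for Pcna, Cdt1, Rfc2, Rfc3, Gins4, Cdc45, Gins3 and Tyms. With TMM scaling, SRF-KO LPS is close to or under control LPS for Pcna, Cdt1, Rfc2 and Rfc3, overlaps untreated control for Cdc45 and Gins3, and is highest for Tyms.

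Nucleotide supply genes had a median log2 fold change of -3.11 with LPS, the lowest of the 6 steps, and all 5 were higher in SRF-KO LPS, with a median of 2.02. Rrm1 and Rrm2 encode the large and small subunits of ribonucleotide reductase, which makes deoxynucleotides. Rrm1 (chr7:102441695-102469771) had 133, 130 and 124 CPM in untreated control, 22.8, 21.2 and 23.9 in control LPS, and 114, 122 and 121 in SRF-KO LPS. It thus lay just under untreated control in SRF-KO LPS, by -0.12 on the log2 scale (adjusted p = 0.0142, edgeR), a difference that did not pass without untreated replicate 1 (adjusted p = 0.057) or SRF-KO replicate 1 (adjusted p = 0.117). Rrm2, the cell cycle-regulated subunit, had 60.1, 54.1 and 52.0 CPM, then 4.03, 3.04 and 5.30, then 36.3, 36.0 and 38.1. Its genotype difference of 3.14 (SE 0.107, adjusted p = 1.03e-25, edgeR) was the largest of the 46 genes. Rrm2b, the alternative small subunit and not among the 46, had 10.2 to 12.7 CPM in the control libraries with and without LPS and 15.2 to 17.0 in SRF-KO LPS. Per kilobase, Rrm2 averaged 42.1%, 18.7% and 33.5% of the ribonucleotide reductase level and Rrm2b 4.09%, 24.4% and 6.94%, in the order untreated control, control LPS and SRF-KO LPS.

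Tyms (chr5:30058202-30073617, minus strand), thymidylate synthase, which makes dTMP from dUMP, was the only one of the 46 genes that passed as higher in SRF-KO LPS than in untreated control. It had 16.7, 17.9 and 13.6 CPM in untreated control, 8.62, 10.2 and 6.92 in control LPS, and 33.8, 31.0 and 29.0 in SRF-KO LPS. The 3 groups did not overlap, and SRF-KO LPS was the highest. With LPS the log2 fold change of Tyms was -0.91 (SE 0.114, adjusted p = 3.36e-09, edgeR), a smaller fall than the rest of its step. It was 0.96 higher in SRF-KO LPS than in untreated control (SE 0.0845, adjusted p = 5.39e-13, edgeR), or 1.95-fold.

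Tk1 and Dut lie next to Tyms in dTTP supply and did not share its pattern. Dut, which removes dUTP and provides the dUMP that Tyms uses, had 18.9, 18.2 and 19.8 CPM in untreated control, 1.37, 1.45 and 0.711 in control LPS, and 4.82, 4.84 and 4.48 in SRF-KO LPS. Its fall with LPS was 16.3-fold, and in SRF-KO LPS it remained 4-fold below untreated control. The control LPS counts were only 17, 21 and 11, so the size of the fall is uncertain. Tk1, the salvage kinase for thymidine, fell by 3.11 on the log2 scale, was only 0.75 higher in SRF-KO LPS than in control LPS, and stayed 5.13-fold below untreated control.

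E2F and cyclin E genes had a median log2 fold change of -2.36 with LPS and 1.484 between the genotypes, and all 4 were higher in SRF-KO LPS. E2f1, an activator of replication genes, had 56.2, 54.0 and 56.1 CPM in untreated control, 22.4, 20.5 and 22.1 in control LPS, and 35.1, 35.1 and 36.3 in SRF-KO LPS. SRF-KO LPS lay between the controls without overlap, with a genotype difference of 0.71 (SE 0.0637, adjusted p = 9.64e-13, edgeR). E2f2, another activator, had a wider span, falling by 3.68 on the log2 scale and lying 2.36 higher in SRF-KO LPS.

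Cyclin E activates Cdk2 for entry into S phase, and its genes differed. Ccne2 fell by 3.37 and was 2.26 higher in SRF-KO LPS, while Ccne1 fell by 1.07 and was 0.27 higher (adjusted p = 0.0233, edgeR). Ints8 on the opposite strand overlaps 17.4% of the Ccne2 exon bases. Its mean in control LPS was 35.1 CPM, against 1.89 for Ccne2. The Ccne1 difference did not pass in DESeq2 (adjusted p = 0.06) or without control LPS replicate 1 or 3 or SRF-KO replicate 2, where the adjusted p was 0.0645, 0.054 and 0.165.

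Chromatin copying genes had a median log2 fold change of -2.25 with LPS and 1.18 between the genotypes, and all 5 were higher in SRF-KO LPS. Dnmt1, which copies DNA methylation to the new strand, had 247, 245 and 261 CPM in untreated control, 52.9, 51.5 and 54.7 in control LPS, and 98.6, 97.2 and 98 in SRF-KO LPS. Its SRF-KO libraries were separate from both controls and nearer to control LPS. Uhrf1, which brings Dnmt1 to hemimethylated DNA, changed more, by -3.83 and 2.32.

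Chaf1a and Chaf1b, subunits of the CAF-1 histone chaperone, changed by -2.25 and -3.15 with LPS and were 1.90 and 1.18 higher in SRF-KO LPS than in control LPS. Chaf1a averaged 41.2% of the pair's level per kilobase in untreated control, 56.6% in control LPS and 68.3% in SRF-KO LPS, but 52.5% of its exon bases overlap Ubxn6 on the opposite strand. Slbp, which binds histone mRNA, had 40.8, 39.1 and 42.1 CPM in untreated control, 24.0, 25.6 and 24.2 in control LPS, and 27.0, 27.4 and 27.7 in SRF-KO LPS. Its mean was 60.5% of untreated control in control LPS and 67.3% in SRF-KO LPS. The genotype difference was small, at 0.15 (adjusted p = 0.0343, edgeR), and did not pass in DESeq2 (adjusted p = 0.0828). Nor did it pass without control LPS replicate 1 or 3 or SRF-KO replicate 2 or 3 (adjusted p from 0.0644 to 0.101, edgeR).

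The wider list of 73 other replication genes moved in the same direction with more exceptions. With LPS 56 were lower and 12 higher (40.8% of all tested genes each way). The other 5 did not pass, and the median log2 fold change was -1.46, against -0.02 over all tested genes. Between the genotypes 54 were higher (39.1% of tested genes), 11 lower (37.9%) and 8 did not pass (median 0.99, against 0.01). Against untreated control SRF-KO LPS had 45 lower (40.1% of tested genes), 11 higher (39.4%) and 17 that did not pass (median -0.30, against -0.01). Cdca7, a Myc and E2F target, and Exo1, an exonuclease, had the largest falls with LPS, at -5.94 and -4.16. Both values rest on low control LPS counts, 6, 5 and 4 for Cdca7 and 7, 6 and 13 for Exo1. Ccna2, the S-phase cyclin A, and Shmt1, a folate enzyme that feeds thymidylate synthesis, had the largest genotype differences, at 4.27 and 3.55. Shmt1 had only 3, 8 and 3 counts in control LPS, so the size of its difference is uncertain.

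Ccna2 had 50.3, 48.5 and 49.2 CPM in untreated control, 2.82, 4.49 and 4.14 in control LPS, and 73.5, 75.0 and 75.6 in SRF-KO LPS, and so shared with Tyms the place above untreated control. Others above untreated control in SRF-KO LPS were Cks1b (1.35), a Cdk cofactor, Asf1a (1.05), a histone chaperone, Lin54 (0.53), Rrm2b (0.50), Orc3 (0.40), Dbf4 (0.32), Rnaseh2c (0.28), Orc4 (0.24), Ticrr (0.19) and Pclaf (0.18), the last of which turned to -0.02 with library totals alone. Of these, Orc4, Dbf4, Ticrr and Rnaseh2c did not pass with library totals, the call of Ticrr was also lost in DESeq2 and without untreated replicate 2 or SRF-KO replicate 1 or 2, and that of Pclaf without untreated replicate 3 or SRF-KO replicate 2. Farthest below untreated control were Cdca7 (-3.73) and Dscc1 (-1.71), of an alternative clamp loader.

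Among the genes that rose with LPS, those that limit or feed the deoxynucleotide pool from outside the cell cycle had the largest values. Samhd1, which breaks down dNTPs, had 506, 484 and 501 CPM in untreated control, 2583, 2593 and 2567 in control LPS, and 514, 511 and 472 in SRF-KO LPS. Its control LPS libraries stood 5.19-fold above untreated control and 5.17-fold above SRF-KO LPS, which overlapped each other, and the log2 fold changes were 2.38 with LPS and -2.37 between the genotypes. Dck, the deoxycytidine salvage kinase, had 204, 190 and 197 CPM, then 400, 443 and 424, then 137, 137 and 124, for log2 fold changes of 1.10 and -1.67. Mcmbp, which binds MCM proteins, changed by 0.63 and -0.74. The others higher with LPS were Asf1a (0.56), then Orc4 (0.45), Pole4 (0.44) and E2f5 (0.35), which changed sign without passing with library totals alone, and E2f4 (0.33), Rbl1 (0.23), Lin37 (0.23), Top1 (0.20) and Orc3 (0.19), which then passed as lower. With library totals Mcmbp and Asf1a did not pass either. The call was lost for Orc3, E2f5 and Lin37 without untreated replicate 3, for E2f5 without control LPS replicate 2 and for Lin37 in DESeq2 and without control LPS replicate 3.

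The other genes lower in SRF-KO LPS than in control LPS were Timeless (-0.58), a fork protection factor, Pole4 (-0.56), Mcm9 (-0.47), Rbl1 (-0.37), Pold3 (-0.34), E2f4 (-0.32), Orc4 (-0.22) and Top1 (-0.13), and with library totals alone Top1 passed as higher, Pold3, E2f4 and Orc4 changed sign without passing, and Mcm9 and Rbl1 kept their sign without passing. Timeless was thus low in both LPS groups, with 39.0 to 42.5 CPM in untreated control, 28.2 to 29.8 in control LPS and 17.1 to 21.3 in SRF-KO LPS, an order like that of Mcm6.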

How the data were processed

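RNA sequencing libraries (stranded TruSeq, per the labels' protocols) were processed with bcl2fastq 2.19, Trimmomatic, STAR 2.5.4b and featureCounts on GRCm38, per the submitters' processing notes, which also name edgeR. No source used here gives the annotation release or the strand setting. The authors deposited whole-number read counts per Ensembl gene, not normalized. Sample titles gave the groups and replicate numbers. Of 22524 genes 22214 matched a symbol and position in GENCODE mouse release 21.

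From these counts, R 4.3.3 and edgeR 4.0.16 fitted 1 quasi-likelihood model with group as its term to all 9 libraries, after filterByExpr (11560 genes), TMM scaling and robust dispersions (common biological coefficient of variation 3.46%). The threshold was an adjusted p (Benjamini-Hochberg, over all tested genes) below 0.05. SE was calculated from the unshrunk fold change and the F statistic. Levels within complexes were CPM per kilobase of the APPRIS principal mRNA or, where the annotation gave none of the top rank (Prim1 and Rfc1 among the shares printed), of the longest coding transcript. Replicate pairs differed beyond counting noise (chi-square per degree of freedom 1.75 to 3.95), which does not show whether they are separate mice or cultures. Each library was counted as a replicate. Alternatives were library totals, RLE scaling, DESeq2 1.42.0, no filter, a replicate block, only the groups compared and each library left out. Genes on X and Y and genes overlapping another counted gene were left out after seeing the data, and raw Mcm6 shares were added likewise. The steps were tested on simulated counts.

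The members, steps and lists were chosen with earlier results of these data known. Values per library are given for the member with the highest mean log2 CPM of each step and for members called against the majority, not called, or over 2 scaled median absolute deviations from the members' median. Mcm2, Mcm5, Rrm2, Dut, Slbp and the promoters shown were picked after their values were seen. Among other replication genes, those called against the majority and the 2 largest changes per comparison are named, and Gmnn, Pole3 and the single markers were picked after their values were seen.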

Additional observations from a re-analysis of the deposited data

How the results depend on the processing

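The counts of genes called in either direction among the 46 stayed within 1.5 times under every alternative. They cannot exceed 46, and most tested genes were called too, so this says little. Leaving out each library gave 46 to 46, 41 to 44 and 43 to 44 calls for LPS, for the genotypes under LPS and for SRF-KO LPS against untreated control, respectively. Over all tested genes the calls then ran from 9156 to 9531, from 8548 to 9019 and from 8921 to 9268. Between the genotypes, library totals alone gave 44 higher and 1 lower of the 46, against 40 and 3 with TMM scaling. The median log2 fold changes ran from -2.30 to -2.22, from 1.41 to 1.49 (1.41 without control LPS replicate 2) and from -1.05 to -1.0025 with 1 library left out. With library totals alone the medians were -2.80, 1.82 and -1.24, and without the 12 genes that overlap another counted gene the LPS median was -2.38. Library totals alone turned the sign (not always past the threshold) for Orc3 (-0.36), Orc4 (-0.10), Pole4 (-0.11), Top1 (-0.35), E2f4 (-0.22), E2f5 (-0.20), Rbl1 (-0.32) and Lin37 (-0.32) with LPS, for Cdt1 (0.24), Pcna (0.21), Orc4 (0.14), Pold3 (0.0187), Top1 (0.23) and E2f4 (0.033) between the genotypes, and for Cdc45 (-0.17) and Pclaf (-0.0158) in SRF-KO LPS against untreated control. The replicate numbers did not pair the libraries throughout, with same-number correlations of deviations from -0.0746 to 0.0971. Between control LPS and SRF-KO LPS each library was closest to its own number (0.0654, 0.0971 and 0.018), but not between untreated control and either LPS group. With the replicate number as a block 46, 43 and 44 of the 46 genes were called, as without it, and 9467, 8919 and 9231 of all tested genes against 9443, 8905 and 9192. The 3 libraries per group and the low control LPS counts of Orc1, Pole2, Dut and Ccne2 (under 20 in at least 1 library) limit the smallest differences that could be called. The low counts also leave the size of the changes of these genes uncertain.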

Other observations

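Regulators of the E2F programme outside the 46 genes, picked after their values were seen, moved unequally. E2f7 and E2f8, atypical E2F repressors that are themselves made in S phase, had log2 fold changes of -3.82 and -3.02 with LPS and were 3.16 and 1.82 higher in SRF-KO LPS than in control LPS (edgeR). E2f7 had only 9, 11 and 12 counts in the control LPS libraries. E2f3, an activator, passed in none of the 3 comparisons, with values of -0.08, 0.13 and 0.05. Rb1, the retinoblastoma gene, changed by -0.75 with LPS, and its genotype difference of -0.04 did not pass (adjusted p = 0.606, edgeR). Cdk2, the partner of cyclins E and A, had 42.1 to 44.8 CPM in untreated control, 13.4 to 15.5 in control LPS and 25.6 to 28.8 in SRF-KO LPS, and Cdc7, the kinase that acts with Dbf4, had 13.1 to 14.1, 0.886 to 1.36 and 5.26 to 5.72. Both had the order of most of the 46 genes, with no overlap between groups.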
